A study of Homo sapiens with 3 samples.

Results

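The genes described here are 10 markers of epithelial-mesenchymal transition (EMT). Each gene was measured on 3 arrays of MDA-MB-231 breast cancer cells transduced with a hairpin to knock down RRAS2. Of these, 5 are mesenchymal effectors (VIM, CDH2, CDH11, AXL and CD44) and 5 are transcription factors that drive the transition (ZEB1, ZEB2, SNAI1, SNAI2 and TWIST1). They were named by gene, but with earlier results of these data known, so the list is not independent of the values. The 10 are VIM (ENSG00000026025), CDH2 (ENSG00000170558), CDH11 (ENSG00000140937), AXL (ENSG00000167601), CD44 (ENSG00000026508), ZEB1 (ENSG00000148516), ZEB2 (ENSG00000169554), SNAI1 (ENSG00000124216), SNAI2 (ENSG00000019549) and TWIST1 (ENSG00000122691). All 10 were found among the 24916 genes of the table. MDA-MB-231 is an established human cell line from a triple-negative breast cancer, and the derivative here is labelled MDA-MB-231-Luc. RRAS2 encodes R-Ras2, a small GTPase of the RAS family. All 3 arrays belong to 1 group, KDRRAS2.p1, a pool of cells transduced with the lentivirus TRCN0000047025, whose short hairpin RNA targets RRAS2, and kept in exponential growth. The labels call the arrays biological replicates 1 to 3 without saying whether RNA came from separate cultures, and 1 transduced pool does not cover differences between pools. The control-hairpin cells that the series design names were not analysed here, so no effect of the knockdown on any of the 10 genes was computed. The level of RRAS2 itself was not computed, because no symbol was paired with its row, so the knockdown was not checked here.

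In EMT, epithelial cells loosen their junctions and take on a motile, mesenchymal shape. The ZEB, SNAIL and TWIST factors are its core regulators: ZEB1, ZEB2, SNAI1 and SNAI2 are zinc finger proteins that repress epithelial genes such as E-cadherin through E-box sequences in their promoters, and TWIST1 is a basic helix-loop-helix protein that also binds E-boxes. The effectors carry the mesenchymal state, through intermediate filaments, cadherins other than E-cadherin, a receptor tyrosine kinase and a hyaluronan receptor. MDA-MB-231 is widely used as a mesenchymal-like breast cancer model.

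The E-box bound by ZEB and SNAIL proteins is the 6-base word CAGGTG (reverse complement CACCTG), and it was looked for on both strands in the 250 bases before each RefSeq transcription start (GRCh38.p14). RefSeq start windows were matched by symbol, with 1 chromosome left out, for 6 of the 10 genes, with 14 windows in all. CDH11, SNAI1, SNAI2 and TWIST1 had no window under this rule, which gives none to a gene on the chromosome left out. The chromosome was not left out of the background of all windows. The word was present in 3 of the 14 windows (21.4%), against 6143 of all 35116 windows (17.5%), so its share was near the background. ZEB1 alone gave 7 of the 14 windows, so this share counts starts and not genes. It occurred in 1 of the 2 AXL windows and in 2 of the 7 ZEB1 windows. The windows of VIM, CDH2, CD44 and ZEB2 held 0 matches. Windows are shown for the 2 genes with a match and, for contrast, for VIM and CDH2, whose signals lay on opposite sides of the array median. Capitals mark the E-box word, and each sequence is written 5′ to 3′ on the strand of the gene.
AXL, chr19:41218973-41219222, plus strand: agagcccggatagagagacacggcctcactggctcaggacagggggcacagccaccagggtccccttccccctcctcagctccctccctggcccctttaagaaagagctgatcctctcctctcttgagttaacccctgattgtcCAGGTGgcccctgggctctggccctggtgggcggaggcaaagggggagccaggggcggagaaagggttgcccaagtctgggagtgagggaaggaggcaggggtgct
ZEB1, chr10:31318167-31318416, plus strand: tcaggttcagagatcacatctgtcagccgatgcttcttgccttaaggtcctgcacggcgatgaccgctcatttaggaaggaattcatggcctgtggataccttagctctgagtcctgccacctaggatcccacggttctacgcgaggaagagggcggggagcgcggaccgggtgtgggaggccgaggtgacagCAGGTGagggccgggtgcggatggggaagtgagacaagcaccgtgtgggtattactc
VIM, chr10:17227991-17228240, plus strand: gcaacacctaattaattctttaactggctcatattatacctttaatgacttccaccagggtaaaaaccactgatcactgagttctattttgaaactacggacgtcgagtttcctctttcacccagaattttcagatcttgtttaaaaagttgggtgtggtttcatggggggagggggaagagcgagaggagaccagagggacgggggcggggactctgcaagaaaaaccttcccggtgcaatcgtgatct
CDH2, chr18:28177131-28177380, minus strand: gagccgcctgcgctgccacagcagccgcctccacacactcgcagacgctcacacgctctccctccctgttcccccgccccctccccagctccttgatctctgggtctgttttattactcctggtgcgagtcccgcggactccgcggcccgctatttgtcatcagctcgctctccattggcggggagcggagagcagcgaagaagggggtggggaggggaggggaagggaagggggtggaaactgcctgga
In the AXL window the word lies 106 to 101 bases before the start. In the ZEB1 window it lies 57 to 52 bases before the start. Another ZEB1 window (chr10:31318966-31319215, plus strand) held it at 2 places, at 242 to 237 bases before its start as the reverse complement and at 85 to 80 bases as written. Of all windows, 2.5% held 2 or more matches. A match is a description of the letters and shows neither binding nor regulation, and 0 matches says only that these letters are missing from that window.

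Across the 3 arrays the 10 genes fell on both sides of the middle of the array. The table does not name its scale, and log2 was assumed because the authors used RMA (robust multi-array average), whose results are log2 values. Each array's median over all genes (6.80 to 6.84) is used here to split bright from dim signals. Since it measures no background, a dim gene may still be expressed. Above the median on all 3 arrays were 7 of the 10 genes, against 48.6% of all genes. The other 3, CDH2, CDH11 and SNAI1, were at or below it on all 3, as were 48.6% of all genes. Above the lower quartile on every array were 9 of the 10, all but CDH11, against 73.4% of all genes. Above the upper quartile (9.04 to 9.05) on every array were VIM, AXL, CD44, ZEB1 and SNAI2, 5 of 10 against 23.9% of all genes. Of these, VIM, AXL, CD44 and SNAI2 were also above the 95th percentile (11.33 on each array), 4 of 10 against 4.6% of all genes. The brightness of a gene depends on its own probes, so positions on the array are given for each gene and the 10 genes are not ranked against each other.

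**Figure D1:**
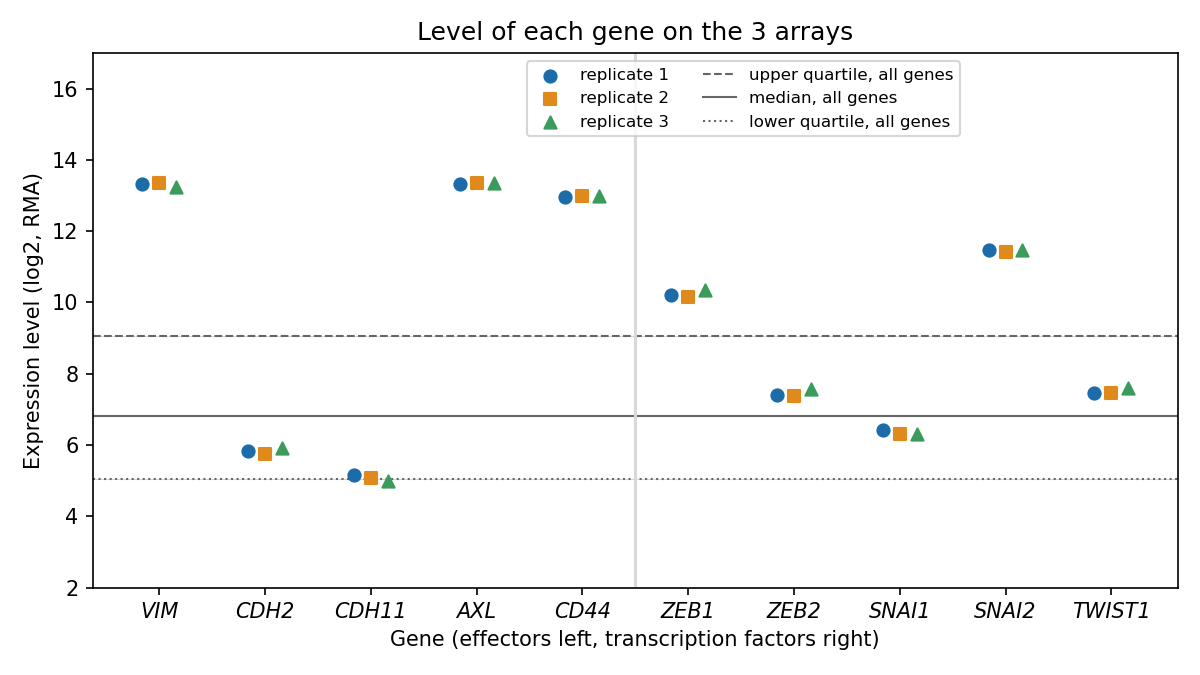
Expression level (log2, RMA) of each of the 10 genes on replicates 1, 2 and 3 (points), with lines at the lower quartile, median and upper quartile of all 24916 genes. The 3 points of a gene nearly coincide; VIM, AXL, CD44, SNAI2 and ZEB1 lie above the upper quartile, ZEB2 and TWIST1 a little above the median, and SNAI1, CDH2 and CDH11 below it.

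Among the effectors, VIM, AXL and CD44 were near the top of every array. VIM encodes vimentin, the intermediate filament protein that defines mesenchymal cells. It stood at 13.32, 13.35 and 13.23 in replicates 1 to 3 (mean 13.30 ± 0.065, SD, n = 3). Only 61, 59 and 71 of the 24916 genes had a higher value on the respective array. AXL encodes a receptor tyrosine kinase of the TAM family, whose ligand is GAS6. Its values were 13.33, 13.36 and 13.35 in replicates 1 to 3 (mean 13.35 ± 0.015, SD, n = 3), with 57, 57 and 55 genes above it. The whole range of AXL was 0.028 log2 units, or 1.02-fold. CD44, the cell surface receptor for hyaluronan, was at 12.95, 12.98 and 12.98 (mean 12.97 ± 0.020, SD, n = 3). Between 122 and 148 genes were above it. CD44 is made as several spliced forms, and the single value per gene does not separate them.

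Both cadherins among the effectors were on the dim side. CDH2 encodes N-cadherin, the cadherin that replaces E-cadherin in the classical description of EMT. Its level was 5.83, 5.75 and 5.92 in replicates 1 to 3 (mean 5.83 ± 0.083, SD, n = 3), or -1.01, -1.06 and -0.88 log2 units relative to the array median. On the 3 arrays 35.5% to 38.1% of genes had a lower value. CDH11 encodes cadherin-11, a mesenchymal cadherin also called OB-cadherin. It was at 5.17, 5.08 and 4.99 (mean 5.08 ± 0.088, SD, n = 3), close to the lower quartile of the arrays (5.03 to 5.06). CDH11 lay above the lower quartile in replicates 1 and 2 and below it in replicate 3. RMA compresses differences near the lower end of the scale, where these 2 genes lie. Vimentin and N-cadherin transcripts, both used as mesenchymal markers, were thus on opposite sides of the median on each of the 3 arrays.

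The transcription factors covered the range from well above to below the median. SNAI2, also called SLUG, a zinc finger repressor of E-cadherin, was at 11.48, 11.41 and 11.46 in replicates 1 to 3 (mean 11.45 ± 0.037, SD, n = 3). On each array 95.4% to 95.7% of genes had a lower value. Its relative SNAI1, also called SNAIL, lay below the median on every array. SNAI1 was at 6.42, 6.31 and 6.32 (mean 6.35 ± 0.060, SD, n = 3), and 43.5% to 44.6% of genes were lower. Of these 2 SNAIL family factors, SNAI2 was above the median and SNAI1 below it on all 3 arrays. Different probes measure the 2 genes, so the difference between their levels is not a ratio of their transcripts.

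The ZEB factors both lay above the median. ZEB1, a zinc finger and homeodomain repressor that acts in a mutual inhibition loop with the miR-200 family of microRNAs, was at 10.21, 10.16 and 10.34 in replicates 1 to 3 (mean 10.23 ± 0.092, SD, n = 3). From 86.7% to 88.1% of genes were lower. ZEB2, its paralogue, also called SIP1, was at 7.41, 7.38 and 7.58 (mean 7.46 ± 0.105, SD, n = 3). It exceeded the array median by 0.58 log2 units in replicates 1 and 2 and by 0.78 in replicate 3. TWIST1, which acts in mesoderm and neural crest development, was in the same zone at 7.45, 7.46 and 7.60 (mean 7.50 ± 0.081, SD, n = 3). It exceeded the median by 0.62, 0.65 and 0.80 log2 units in replicates 1 to 3. Replicate 3 was the highest array for ZEB1, ZEB2 and TWIST1.

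None of the 10 genes differed widely between replicates. The highest and lowest arrays of a gene were apart by 0.028 (AXL) to 0.194 log2 units (ZEB2), which is 1.02-fold to 1.14-fold. A range over 0.5 log2 units was seen for 0 of the 10, against 3.52% of all genes, and over 0.3 log2 units for 0 of 10, against 16.8%. As deposited, all 10 had a range under 0.2 log2 units, a limit chosen after the values were seen, as did 61.6% of all genes. ZEB2 was over that limit, at 0.202, after quantile normalisation and with each array centred on its median. The median SD was 0.073 log2 units over the 10 genes and 0.086 over all genes. It was 0.028 over the 10 genes without replicate 3, with 2 arrays left. Between those 2 arrays the median absolute difference was 0.04 log2 units over the 10 genes, against 0.084 over all genes. On all 3 arrays the median SD was 0.065 for the 5 effectors (0.015 to 0.088) and 0.081 for the 5 transcription factors (0.037 to 0.105).

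Spread changes with level, so each gene was also set beside 500 genes around it in the ranking by mean level. VIM, AXL and CD44 are so near the top that they shared 1 band, the brightest genes, most of them dimmer than these 3. As deposited, AXL and CD44 were tight for their level: 6.20% and 11.8% of their neighbours had a smaller SD. The neighbours' median SD was 0.048 log2 units. VIM, at the same end of the scale, was wider than most, with 64.4% of its neighbours below it. SNAI2 was narrower than most of its neighbours, of which 16.6% had a smaller SD. SNAI1 likewise had 22.6% and TWIST1 33.0% of neighbours below it. ZEB1, ZEB2, CDH2 and CDH11 were close to the middle, at 55.4%, 47.8%, 42.6% and 48.0%. An SD from 3 arrays is itself imprecise, so these positions describe the arrays as deposited and were not tested. After quantile normalisation CD44 was 0.091 log2 units higher in replicate 3 than in replicate 2, against 0.007 as deposited. For AXL, replicate 3 minus replicate 1 was 0.021 as deposited, 0.016 after quantile normalisation and 0.056 with centred arrays.

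**Figure D2:**
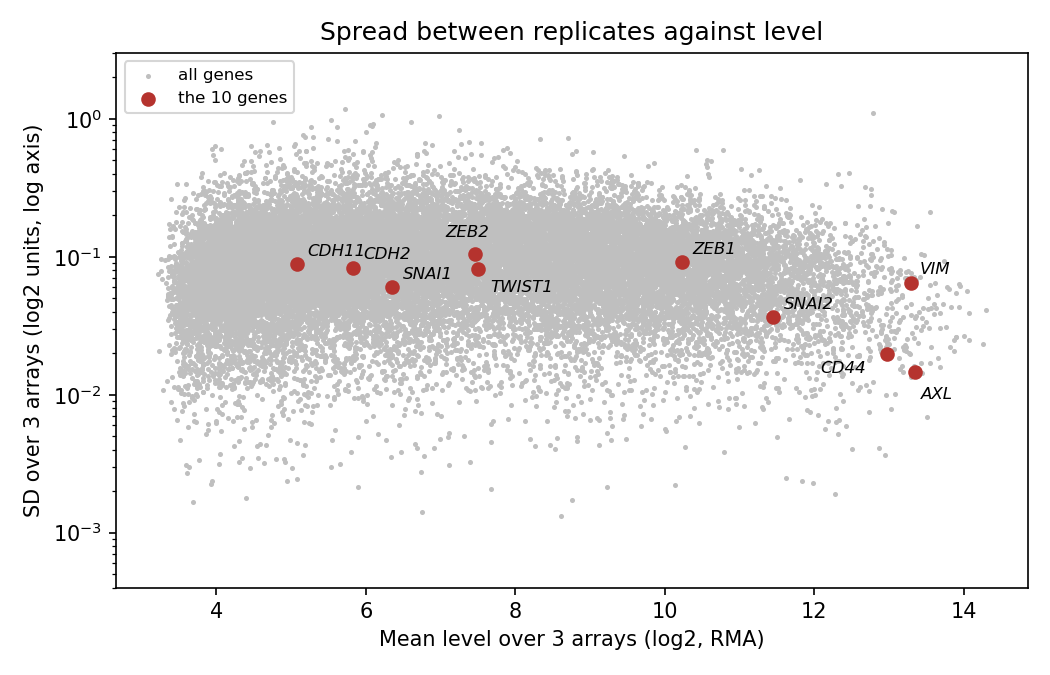
SD over the 3 arrays (log2 units, log axis) against mean level (log2) for all 24916 genes (grey), with the 10 EMT genes in red. AXL (0.015) and CD44 (0.020) lie low among genes of their level, and the other 8 lie between 0.037 and 0.105. All 10 are within the grey cloud.

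Replicate 3 lay farthest from the gene's middle value for 6 of the 10 genes (VIM, CDH2, CDH11, ZEB1, ZEB2 and TWIST1), against 41.7% of all genes. For CDH11 replicates 1 and 3 were all but equally far, with a difference of -0.088 log2 units between replicates 2 and 1 and of -0.089 between replicates 3 and 2. With each array centred on its median it was 5 genes, since replicate 2 was then the farthest for VIM. Replicate 1 was farthest for AXL, CD44 and SNAI1, and replicate 2 for SNAI2, against 27.0% and 31.3% of all genes. The members did not move one way: relative to replicate 2, replicate 3 was higher for 7 genes and lower for 3, and the median difference was 0.031 log2 units, against -0.001 over all genes. Within the transcription factors all 5 were higher in replicate 3 than in replicate 2, by 0.194 for ZEB2, 0.177 for ZEB1, 0.137 for TWIST1, 0.053 for SNAI2 and 0.009 for SNAI1. Over all genes 49.8% were higher. Against replicate 1, replicate 3 was higher for ZEB2 (0.166), TWIST1 (0.144) and ZEB1 (0.131), and lower for SNAI2 (-0.017) and SNAI1 (-0.099).

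Among the effectors, replicate 3 held the lowest value of VIM, with differences of -0.091 log2 units from replicate 1 and -0.126 from replicate 2. It held the highest value of CDH2, with differences of 0.091 and 0.167. CDH11 was also lowest in replicate 3, with differences of -0.177 and -0.089. Replicate 3 thus held the highest value of 5 of the 10 genes (ZEB1, ZEB2, TWIST1, CDH2 and, by 0.007 log2 units over replicate 2, CD44), against 35.2% of all genes. It held the lowest value of 2 of the 10, VIM and CDH11, against 37.9%. Whether a difference between cultures, RNA preparations or hybridisations moved with these values was not tested. All of these differences are under 0.2 log2 units, and with 3 arrays of 1 group none could be tested.

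**Figure D3:**
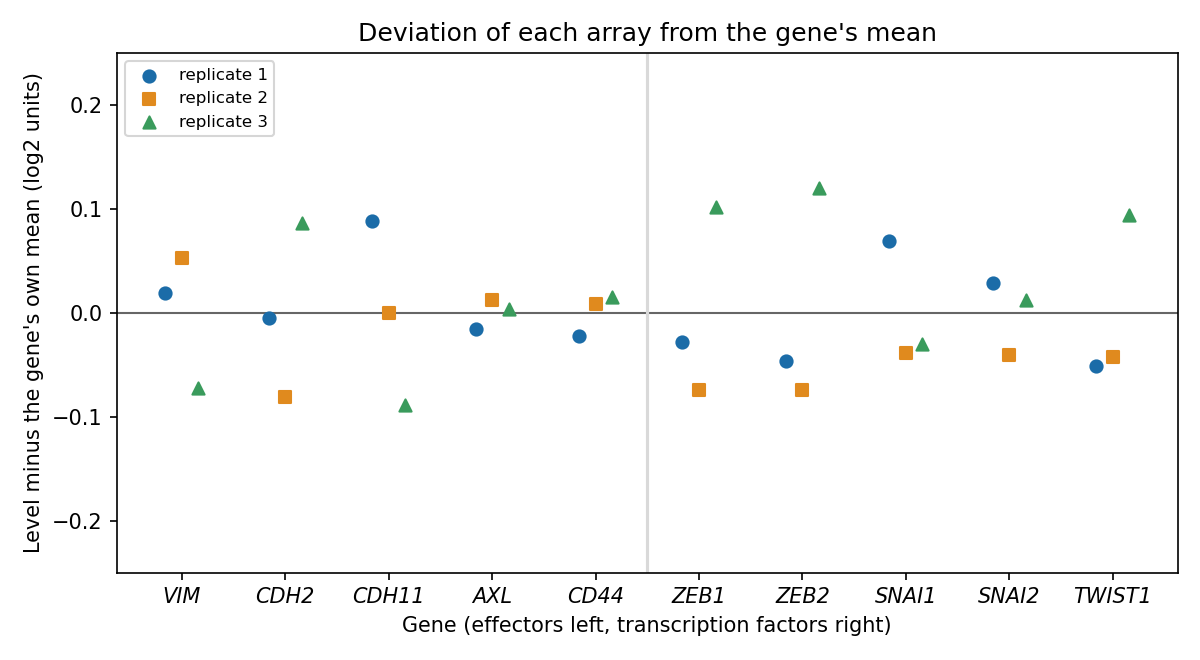
Level on each array minus the gene's own mean over the 3 arrays (log2 units) for the 10 EMT genes; points are replicates 1, 2 and 3. Replicate 3 is highest for CDH2, ZEB1, ZEB2 and TWIST1 (0.086 to 0.120 above the mean) and, by a small margin, for CD44 (0.015), and lowest for VIM and CDH11, while the 3 points of AXL and CD44 lie between -0.022 and 0.015.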

How the data were processed

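Total RNA of 3 samples was taken up in Trizol, labelled with biotin and run on Affymetrix arrays, per the labels' protocols. The deposited values were made by the authors with RMA and the affy package, per the submitters' processing notes, and were read as log2 because RMA gives that scale; for the array model, the probe-to-gene definition and the genome build, nothing is given in the sources used here. Array signals have no sequencing depth, and precision is limited by n = 3. From the deposited values, the mean, SD, range, farthest array and position among all genes were computed per gene. The counting of ranges over 0.5 log2 units was tested on simulated data. All 200 shifted genes were found and 0 others were called. The simulated noise was smaller than the median SD of the real genes (0.086 log2 units), so the simulation checks only the code. The samples form 1 group, so 0 tests of significance were made.

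The members and lists were chosen with earlier results of these data known. All 10 members were named by rule, with the symbols given in the member list. The RefSeq gene table held an Ensembl identifier for 0 of 59792 genes, so the lists of EMT partner genes, epithelial genes and markers of other cell types, and the level of RRAS2, were not used. Alternatives were quantile, cyclic loess and median-centring normalisation, other dividing lines and range limits, and leaving out each replicate. Promoter sequences are those of RefSeq, GRCh38.p14. Tools were Python 3.11.15, numpy 2.4.6, pandas 2.3.3, R 4.3.3 and limma 3.58.1.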

Additional observations from a re-analysis of the deposited data

How the results depend on the processing

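The number of genes above the array median on all 3 arrays was 7, and it was 7 with the array's mean as the line. It was also 7 with at least 2 of 3 arrays and without any 1 replicate. These settings could give no other count, since the other 3 genes were at or below the median on every array. With the lower quartile as the line it was 9, and with the upper quartile 5. No gene had a range over 0.5 log2 units under any setting run, though leaving out an array can only narrow a range. The count of genes with replicate 3 farthest was 6 as deposited, 8 after quantile and 8 after cyclic loess normalisation, and 5 when each array was centred on its median. Over all genes the share was 41.7%, 41.6%, 41.6% and 40.7%, in the same order. The genes added by quantile and cyclic loess normalisation were AXL and CD44. For AXL the margins were small: replicate 3 exceeded replicates 1 and 2 by 0.016 and 0.016 (quantile) or 0.026 and 0.023 (cyclic loess). Under all 3 normalisations replicate 3 stayed the highest array for ZEB1, ZEB2, TWIST1 and CDH2 and the lowest for VIM and CDH11. All 5 transcription factors stayed higher in replicate 3 than in replicate 2. The median SD of the 10 genes was 0.073 as deposited, 0.065 after quantile and 0.065 after cyclic loess normalisation, and 0.066 with centred arrays; the cause was not tested. With replicate 1, 2 or 3 left out it was 0.076, 0.067 and 0.028, in that order. An SD from 2 arrays tends to come out smaller than from 3, and the reason for these values was not tested. All 60 recomputed mean levels stayed within 1 SD of the deposited mean, the farthest being ZEB2 by 0.060 log2 units without replicate 3. Leaving out 1 of 3 arrays cannot move a mean by a full SD, and centring as done here leaves the mean unchanged. Only the quantile and cyclic loess settings could have given another outcome. Even these had little room to move a mean, since the deposited arrays were already alike (medians 6.80 to 6.84). No paired analysis was possible because all 3 arrays are of KDRRAS2.p1. The summarised values hold no signal over background.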
